A study of Homo sapiens with 6 samples.

Results

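The data concern 141 processed and related pseudogenes of cytosolic ribosomal protein genes in CAL27, an established human cell line derived from a squamous carcinoma of the tongue. They were taken from a table of 31368 genes as the rows whose symbol is RPL or RPS, a parent name, the letter P and a number, with a mean of at least 1 FPKM over 6 RNA-seq libraries. FPKM is the number of sequenced fragments scaled to the length of the gene and to the size of the library. RPLP0, RPLP1 and RPLP2, which are functional genes, were left out by name. The pattern also took RPS19BP1, a protein-coding gene for a binding partner of the RPS19 protein, which was set aside because it is no pseudogene. In all, 573 pseudogenes with such names were in the table, and 432 of them lay below the threshold. Just inside it were RPL21P98 at 1.08, RPL23AP25 at 1.06 and RPL15P22 at 1.01 FPKM, and just outside it RPL39P40 at 0.962, RPS3AP25 at 0.928 and RPL12P17 at 0.925 FPKM. The members were thus chosen by their mean FPKM, and their levels are given as a description. The rule does not use the comparison of lactate with untreated cells, but it was set with earlier results of these data known.

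The lactate group held 3 libraries from CAL27 cells kept in 10 mM lactate for 24 h, and the untreated group held 3 libraries from CAL27 cells with no treatment. RNA with a poly-A tail was selected in both groups, and both rest on the same single cell line. The series was set up to relate lactate, and the lysine lactylation that it feeds, to how genes are regulated in oral squamous carcinoma. Separate cultures are not mentioned in the labels. The p-values therefore cover the spread among these 6 libraries, which may be technical. In bulk RNA fewer cells of a kind and less RNA per cell cannot be told apart.

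A processed pseudogene arises when a messenger RNA is copied back into DNA and inserted elsewhere in the genome, so it carries its parent's coding sequence without the introns and usually without the promoter. Ribosomal protein genes encode the proteins of the large (RPL) and small (RPS) ribosomal subunits. They are among the most highly transcribed genes of growing cells, and they have left many such copies in the human genome. A young copy differs from its parent at few bases, and a short read from the shared stretch fits either place.

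The sequences show how close the copies that carry most of the signal are to their parents, and how far the others have moved. They were read from GENCODE 29 transcripts (GRCh38), run 5′ to 3′ along the coding direction, and have in capitals each base that differs between pseudogene and parent. RPL41P1 (chr20:21755270-21755347, plus strand) is the pseudogene with the highest level. Its stretch below equals the whole coding sequence of RPL41, and RPL41P5 (chr12:93083598-93083675, minus strand) has the same bases.
RPL41P1: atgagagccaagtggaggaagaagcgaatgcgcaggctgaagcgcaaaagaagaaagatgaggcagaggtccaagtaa
RPS28P7 (chr11:82689559-82689678, plus strand) is shown because its parent had few reads. Coding bases 1 to 120 of RPS28 are the same.
RPS28P7: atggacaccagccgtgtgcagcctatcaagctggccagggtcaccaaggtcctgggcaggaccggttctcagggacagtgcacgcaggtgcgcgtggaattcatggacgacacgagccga
RPL9P7 (chrX:23836955-23837154, minus strand) is shown because it is 1 of the 2 members whose difference from the parent passed the test, a call that leaving out any library ended. It is set beside coding bases 167 to 366 of RPL9, which hold the 2 bases that differ.
RPL9P7: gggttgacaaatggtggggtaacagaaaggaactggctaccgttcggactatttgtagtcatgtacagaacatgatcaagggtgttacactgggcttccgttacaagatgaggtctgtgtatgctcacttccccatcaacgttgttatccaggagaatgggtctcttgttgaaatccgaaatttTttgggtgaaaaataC
RPL9: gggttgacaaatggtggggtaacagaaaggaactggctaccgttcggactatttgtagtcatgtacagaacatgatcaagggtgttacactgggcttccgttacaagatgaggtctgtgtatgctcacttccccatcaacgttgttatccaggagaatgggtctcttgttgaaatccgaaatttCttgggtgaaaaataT
RPS26P15 (chr1:58056186-58056425, minus strand) had the largest fall, and its 3 differences from RPS26 all lie in coding bases 56 to 295.
RPS26P15: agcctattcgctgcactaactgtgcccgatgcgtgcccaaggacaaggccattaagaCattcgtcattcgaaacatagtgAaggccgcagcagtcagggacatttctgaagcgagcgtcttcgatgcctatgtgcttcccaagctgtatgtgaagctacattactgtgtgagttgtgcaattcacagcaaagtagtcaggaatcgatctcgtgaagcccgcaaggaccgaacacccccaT
RPS26: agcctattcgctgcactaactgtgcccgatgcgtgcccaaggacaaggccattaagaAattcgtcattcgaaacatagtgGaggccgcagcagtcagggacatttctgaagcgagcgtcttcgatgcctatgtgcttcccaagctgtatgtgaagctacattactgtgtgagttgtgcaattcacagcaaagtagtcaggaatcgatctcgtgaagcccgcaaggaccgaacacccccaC
RPSAP9 (chr9:76399206-76399355, plus strand) had the next largest fall. It is set beside coding bases 508 to 657 of RPSA, the 150-base stretch with most differences, which number 11.
RPSAP9: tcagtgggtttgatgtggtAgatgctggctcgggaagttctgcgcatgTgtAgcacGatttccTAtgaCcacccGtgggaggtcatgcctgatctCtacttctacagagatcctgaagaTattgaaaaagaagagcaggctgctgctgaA
RPSA: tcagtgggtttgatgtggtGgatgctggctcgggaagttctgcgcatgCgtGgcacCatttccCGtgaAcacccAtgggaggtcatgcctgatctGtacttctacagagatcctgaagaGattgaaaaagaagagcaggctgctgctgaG
RPL13P5 (gene span chr12:6873389-6884741, plus strand) had the largest rise and is among the most diverged members. It is set beside coding bases 174 to 293 of RPL13, the 120-base stretch aligned without gaps that has most differences, which number 31.
RPL13P5: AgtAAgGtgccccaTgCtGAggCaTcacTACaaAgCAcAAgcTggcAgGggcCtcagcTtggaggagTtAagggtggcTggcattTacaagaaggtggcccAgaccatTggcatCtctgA
RPL13: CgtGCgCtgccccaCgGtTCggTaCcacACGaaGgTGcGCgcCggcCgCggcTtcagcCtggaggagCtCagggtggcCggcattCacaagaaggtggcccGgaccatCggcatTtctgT

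Library depth, from reads recovered from the FPKM values, was 30117267 to 38772903 in lactate and 25439391 to 33720356 in untreated cells. All 11 squamous epithelial markers were above 1 FPKM on average, with sums of 1080 to 1100 FPKM in lactate and 1070 to 1090 FPKM in untreated cells. Markers of leukocytes (3 of 4 in the table) summed to 0.369 to 0.632 FPKM in lactate and 0.707 to 0.891 FPKM in untreated cells. The 4 of 5 fibroblast markers in the table summed to 0.798 to 1.01 FPKM in lactate and 0.419 to 0.549 FPKM in untreated cells. The 3 endothelial markers summed to 1.03 to 1.13 FPKM in lactate and 1.13 to 1.41 FPKM in untreated cells, nearly all of it CDH5.

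The 141 pseudogenes copied 50 of the 79 cytosolic ribosomal protein genes. RPSA, RPL7A and RPL23A had 8 members each, RPL21 had 7 and RPS26 had 6, while 16 parents had a single member. By annotation 127 were processed pseudogenes, 12 were transcribed processed pseudogenes, and 2, RPL23AP82 and RPL32P3, were transcribed unprocessed pseudogenes. A single exon made up 130 of them, as a copied messenger RNA would, and 11 had several exons. The median length was 555 bases, from 78 to 4504.

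Levels ran from 1.01 to 8339 FPKM with a median of 18.7 FPKM. 12 members were at or above 1000 FPKM, 50 at or above 100 FPKM and 55 under 5 FPKM. Together the pseudogenes summed to 44444 ± 194.5 FPKM in lactate and 50915 ± 176.5 FPKM in untreated cells (SD, n = 3 each), or 11.1% ± 0.129 of all FPKM in lactate and 11.7% ± 0.119 in untreated cells. The same pseudogenes held 1.88% ± 0.015 of recovered reads in lactate and 2.07% ± 0.016 in untreated cells. The share of FPKM was the higher one because FPKM divides by length. The 50 parents have a median exon length of 3499 bases when all their transcripts are merged, against 555 bases for the pseudogenes. As a result the pseudogenes' FPKM sum came to 341% ± 1.96 of the parents' sum in lactate and 332% ± 0.815 in untreated cells, and 45 members had a higher FPKM than their parent while 16 had more reads.

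The most abundant members copy genes of both subunits. RPL41P1 copies the gene of RPL41, a very short basic protein of the large subunit. It had 8020.2, 7789 and 7896 FPKM in the lactate libraries, against 8962, 8653 and 8714 FPKM in the untreated libraries. All 3 lactate libraries lay below all 3 untreated ones. RPL39P3, a copy of the gene for a small protein of the ribosome's exit tunnel, had 3368, 3261 and 3428 FPKM in lactate, against 3588, 3488 and 3664 FPKM in untreated cells. RPS28P7, a copy of a small-subunit gene, had 3078, 3084 and 3065 FPKM in lactate, against 3494, 3609 and 3533 FPKM in untreated cells. Neither pair of groups overlapped. RPL13AP5, a copy of the gene for the large-subunit protein RPL13A, had 2229.8, 2209 and 2220 FPKM in lactate, against 2831, 2831 and 2804 FPKM in untreated cells. It was the member with most reads, 48514 on average. RPL41P5, RPL18AP3, RPL9P7, RPL36AP37, RPS2P5, RPS27P3, RPL21P16 and RPS27AP16 completed the 12 highest, at means of 1064 to 2496 FPKM. These 12 held 65.0% of the pseudogenes' FPKM in lactate and 64.6% in untreated cells.

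**Figure D1:**
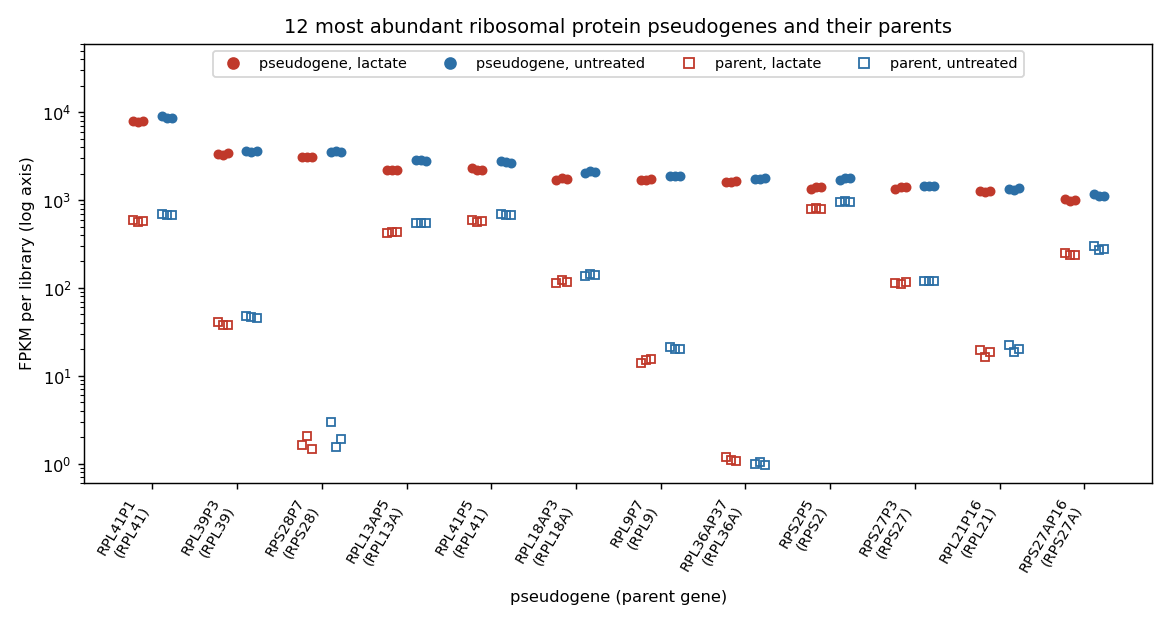
FPKM per library (log axis) of the 12 most abundant pseudogenes (filled circles) and of their parents (open squares), with lactate in red left of untreated in blue, 3 points each. The pseudogenes span 998 to 8776 FPKM in group means, and in each of the 12 the lactate points lie below the untreated ones; the parents RPS28 and RPL36A lie near 1 FPKM to 3 FPKM.

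Several members held far more reads than their parents. RPS28P7 had 21954 reads per library on average, and RPS28 had 128.5 reads. RPL36AP37, a copy of a large-subunit gene, had 17190 reads and RPL36A 133.7 reads. RPL9P7 had 32796 reads and RPL9 2734 reads, RPL21P16 had 20056 and RPL21 1338, and RPL39P3 had 17177 and RPL39 2869. RPS10P3, singled out after its values were seen, had 1210 reads beside 79.5 for RPS10, although only 23.8% of its 50-base windows were found unchanged in RPS10. In other pairs the reads stood close to even: RPL41P1 had 21376 and RPL41 22021 reads, and RPL13AP5 had 48514 and RPL13A 49610. Summed over members, 17 of the 50 families held more reads in the pseudogenes than in the parent. How reads that fit several places were assigned is not given in the sources used here, so a pseudogene's level may include its parent's reads and the reverse, and the split between them was not tested.

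**Figure D2:**
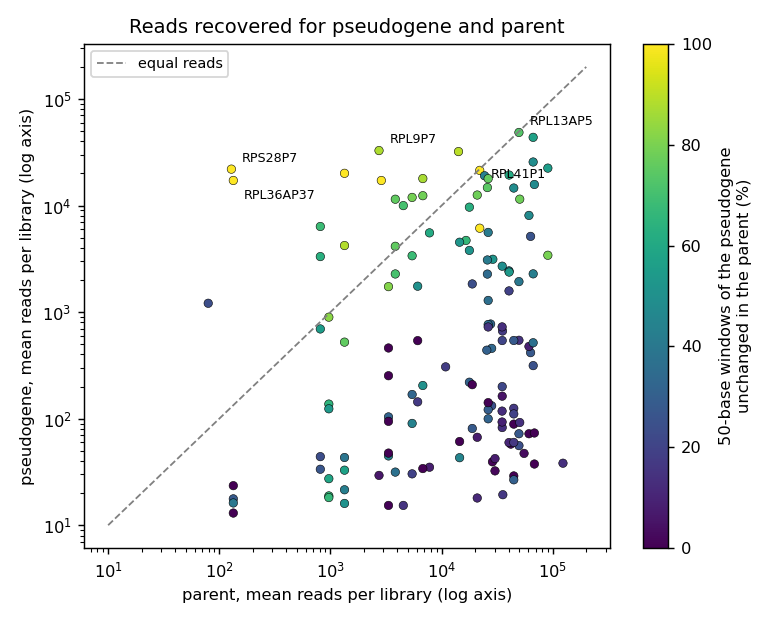
Mean reads per library of each of the 141 pseudogenes (y) against its parent (x), both on log axes, colored by the percentage of the pseudogene's 50-base windows that occur unchanged in a transcript of the parent; the dashed line marks equal reads. The 16 points above the line are mostly light, near-identical copies, while members with few unchanged windows sit mostly under 1000 reads.

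Sequence and reads moved together. Aligned with the parent transcript, the members had a median identity of 97.9%, with 36 at 99% or more, 116 at 95% or more and 9 under 90%. The lowest was 65.4%. Over their whole length 6 were identical to a parent transcript: RPL41P1, RPL39P3, RPS28P7, RPL41P5, RPL36AP37 and RPL21P16. All 6 are among the 12 most abundant. Of a member's windows of 50 consecutive bases, a median of 33.2% occurred unchanged in the parent, and 50.3% in the transcripts of any other gene. In 12 members no window did so in the parent. Members at or above 100 FPKM had 67.3% of windows unchanged at the median, those at 10 to 100 FPKM 29.2%, those at 2 to 10 FPKM 16.4% and those at 1 to 2 FPKM 11.3%. Across the 141 members the Spearman correlation of mean reads with that share was 0.652, a description over genes that share libraries and, within a family, the parent's sequence. An open reading frame as long as the parent's coding sequence was present in 48 members, among them RPL13AP5 and RPL9P7, and 45 had less than 50% of it, among them RPL18AP3.

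The comparison of lactate with untreated cells asked which of these transcripts the treatment moved. Of the 140 members that reached 1 FPKM in 3 or more libraries, 89 passed the test lower in lactate, 4 passed higher and 47 did not pass (limma on log2(FPKM + 1), adjusted p under 0.05 by Benjamini-Hochberg over all 11792 genes tested). Among all genes tested 30.9% passed lower and 27.7% higher. RPL15P22 was not tested. The members' median log2 fold change was -0.23, and that of all genes -0.02. The groups did not overlap in 93 members lower in lactate and in 4 higher, where all genes gave 34.2% and 31.4%. Scaled to the totals of recovered reads, 71 were lower and 8 higher, with a median of -0.16. After quantile normalization the split was 68 lower and 12 higher. Once trends on GC content and length were taken out of every library, 52 were lower and 7 higher. The median was then -0.11.

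The share called lower went up with the level, among the members and among all genes tested. In the band at or above 100 FPKM, 43 of 50 members (86%) passed lower, against 77.8% of all genes in that band. At 10 to 100 FPKM it was 22 of 28 members (78.6%), against 49.1% of all genes. At 2 to 10 FPKM it was 18 of 36 (50%), against 22.6%, and at 1 to 2 FPKM 6 of 26 (23.1%), against 12.4%. The members thus stood above the share of their band in each case, by the least in the highest one. The 505 other processed pseudogenes with a mean of at least 1 FPKM gave 170 lower and 52 higher of 502 tested, with a median of -0.11. Of the functional ribosomal protein genes 69 of 79 passed lower and none higher (0 also at an unadjusted p under 0.05), with a median of -0.22.

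The large-subunit copies gave 59 lower and 2 higher of 98 tested, with a median of -0.22, and the small-subunit copies 30 lower and 2 higher of 42, with a median of -0.25. Among the 12 highest, all passed lower in the main test. With GC and length trends removed, RPL41P1 (-0.00713, limma adjusted p = 0.853) and RPS28P7 (-0.0324, adjusted p = 0.252) did not pass. Neither did RPL36AP37 (-0.00665, adjusted p = 0.849) nor RPS27P3 (0.0874, adjusted p = 0.0704). RPL13AP5 averaged 2219.5 ± 10.2 FPKM in lactate and 2822 ± 15.2 FPKM in untreated cells (SD, n = 3 each), a log2 fold change of -0.35 (SE 0.01, limma adjusted p = 6.27e-06). RPS2P5, a copy of the gene for a protein at the small subunit's mRNA entry, had 1356, 1425 and 1405 FPKM in lactate, against 1712, 1785 and 1778 FPKM in untreated cells, a change of -0.33. RPL41P5 changed by -0.29, RPL18AP3 by -0.26, RPS28P7 by -0.20 and RPS27AP16, a copy of the gene that makes ubiquitin fused to RPS27A, by -0.18. RPL39P3 changed by -0.09, RPL21P16 by -0.09, RPL36AP37 by -0.12 and RPS27P3 by -0.07. The sign of these last 4 and of RPS27AP16 turned after quantile normalization, to values between 0.01 and 0.11. RPL21P16 (limma adjusted p = 0.00155) and RPL36AP37 (adjusted p = 0.0462) then passed higher. Scaled to recovered reads, none of the last 4 passed (adjusted p 0.0738 to 0.846). The direction of small changes in abundant copies thus depended on how the libraries were scaled to each other.

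**Figure D3:**
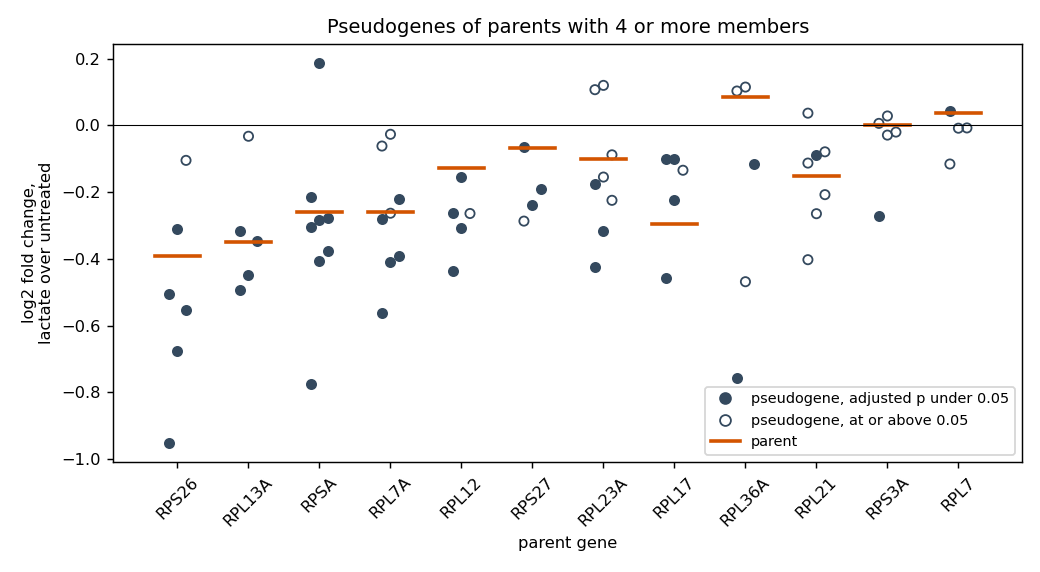
Log2 fold change of lactate over untreated for each tested pseudogene (circles, filled where the adjusted p was under 0.05) of the 12 parents with 4 or more tested members, ordered by the members' median, with the parent as an orange bar. The RPS26 copies lie lowest, at -0.11 to -0.95, and the RPL7 copies lie at -0.12 to 0.04; the RPS3A copies lie within 0.03 of 0 except RPS3AP21 at -0.27, named after its value was seen.

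The families differed in how many copies passed. RPS26 encodes a small-subunit protein at the mRNA exit channel. Its copies gave 5 lower of 6, with a median of -0.53, and RPS26 itself changed by -0.39 (SE 0.04, limma adjusted p = 0.000279). RPSA encodes a small-subunit protein also known as the laminin receptor precursor. Its copies gave 7 lower and 1 higher of 8, from -0.78 to 0.19, with RPSA at -0.26. RPS2, RPS7 and RPL26 had 3 copies each, all lower, and RPL7A had 5 lower of 8. None of the 4 copies of RPL7 passed lower, and RPL7P1 passed higher. RPL7 itself did not pass in the main test (0.04, limma adjusted p = 0.277). It passed higher after quantile normalization (0.172, adjusted p = 0.00129) and scaled to recovered reads (0.107, adjusted p = 0.00582). With GC and length trends removed it passed lower (-0.0546, adjusted p = 0.0379). RPS3A had 1 lower of 5, RPL21 1 of 7, RPL6 1 of 3 and RPS24 none of 2. None of these 4 parents passed, with adjusted p from 0.178 for RPL21 to 0.976 for RPS3A. No copy of RPL7 or RPS24 was called lower by limma, at an unadjusted p under 0.05 (0 of 6) or by voom on recovered reads (0 of 6), and their fold changes ran from -0.12 to 0.10.

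Copies were counted by the call of their parent. The 40 parents that passed lower had 102 tested copies, of which 78 (76.5%) passed lower, 3 higher and 21 did not pass. The other 10 parents, none of which passed higher, had 38 copies. Of these 11 (28.9%) passed lower, 1 higher and 26 did not pass, beside 30.9% lower among all genes. Level, reads and GC content differed between these sets of copies as well. Copies of parents that passed lower had medians of 26.03 FPKM, 515.5 reads per library and 51.11% GC. Copies of the other parents had medians of 6.972 FPKM, 186.6 reads and 43.34% GC. The part of level, depth and GC content in these counts was not tested. Not every parent that did not pass can be called unchanged. RPS28 (-0.20, SE 0.18), RPS10 (-0.25, SE 0.13), RPL22 (-0.19, SE 0.10) and RPL21 (-0.15, SE 0.09) had wide errors. RPL6, RPL7, RPS3A and RPS24 ran from -0.03 to 0.04, with SE of 0.02 to 0.03. In the 50 members at or above 100 FPKM the fold changes of copy and parent had a Pearson correlation of 0.685 and a Spearman correlation of 0.672, and in the 90 lower ones 0.315 and 0.365. These are descriptions across genes that share 6 libraries, parents and, where the sequence is the same, possibly reads.

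**Figure D4:**
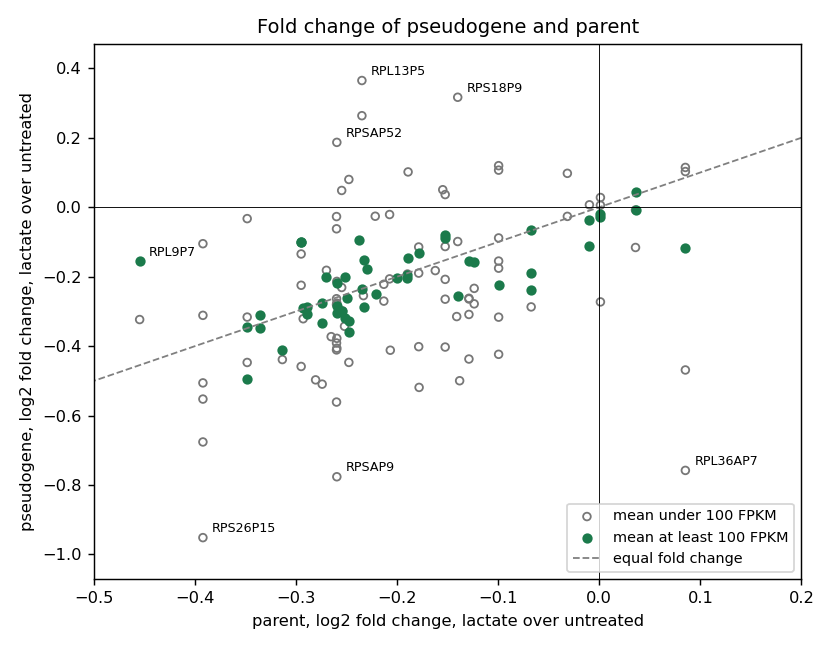
Log2 fold change of lactate over untreated of each tested pseudogene (y) against its parent (x), filled where the pseudogene's mean was at least 100 FPKM; the dashed line marks equal change. Of the 50 filled points 38 lie within 0.1 of their parent on the scale of the direct test, with RPL9P7 farthest above the line, and the open ones spread from -0.95 for RPS26P15 to 0.36 for RPL13P5.

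The difference between copy and parent was tested directly as the change in log2(pseudogene FPKM + 0.1) minus log2(parent FPKM + 0.1), with adjustment over all 568 pseudogene and parent pairs in the table. Of the 140 ribosomal protein pairs none passed lower and 2 passed higher (limma). Among all 568 pairs 7 passed lower (1.23%) and 2 higher (0.352%), and those 2 are the same ribosomal protein pairs. At an unadjusted p under 0.05 there were 16 lower and 10 higher, against 11.4% and 5.28% of all pairs. Voom on recovered reads called 13 lower and 10 higher, of 47 and 18 among all pairs. The groups did not overlap in 34 pairs lower and 13 higher, against 17.1% and 7.22% of all pairs. The median difference was -0.03, and in 38 of the 50 members at or above 100 FPKM the difference was within 0.1. The median difference was -0.11 after quantile normalization, with 7 pairs lower and 5 higher. With the GC and length trends removed it turned to 0.09, with 1 pair lower and 14 higher.

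RPL9P7 differed from its parent, whose protein belongs to the large subunit. An intron of APOO on the same strand holds the copy, and 87.8% of its 50-base windows occurred unchanged in RPL9. RPL9P7 had 32796 reads per library on average beside 2734 for RPL9, and the split of reads between them was not tested. The copy had 1673, 1674 and 1719.7 FPKM in lactate, against 1879.7, 1865 and 1898 FPKM in untreated cells. RPL9 had 13.8, 15.01 and 15.4 FPKM in lactate, against 21.1, 20.2 and 20.3 FPKM in untreated cells. Both were lower in every lactate library, RPL9 by more. The log2 fold change was -0.16 for RPL9P7 and -0.45 for RPL9, and the difference was 0.32 (SE 0.05, limma adjusted p = 0.0355). After quantile normalization RPL9P7 itself did not pass (-0.02, adjusted p = 0.459). RPL13P5 gave the other called difference, 0.85 (SE 0.13, adjusted p = 0.0355), and met the limits of 1 FPKM only through its lactate libraries. Neither passed when any of the 6 libraries was left out, with adjusted p from 0.0621 to 0.135, nor with only annotated pseudogenes among the pairs (0.0512 for both).

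**Figure D5:**
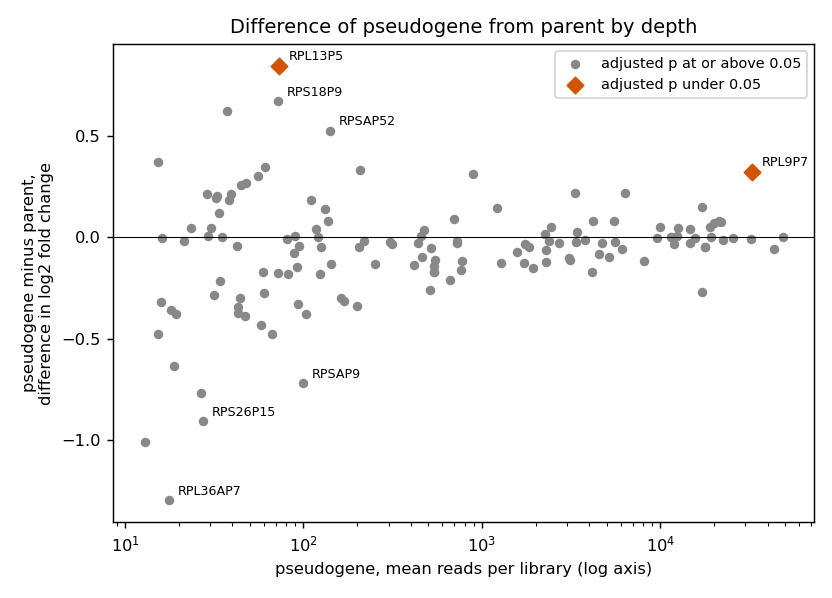
Difference of each pseudogene from its parent in log2 fold change (y) against the pseudogene's mean reads per library (x, log axis), with the 2 differences of adjusted p under 0.05 as orange diamonds. Differences spread from -1.3 to 0.85 among members with about 10 to 200 reads, and above 1000 reads nearly all lie within 0.2 of 0.

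Most of the 8 largest falls were in members with few reads. RPS26P15 lies in an intron of DAB1 on the same strand. It had 1.67, 1.40 and 1.14 FPKM in lactate, against 3.35, 2.97 and 4.75 FPKM in untreated cells. These rest on 18, 16 and 16 reads in lactate and 33, 26 and 55 reads in untreated cells. The groups did not overlap, and the log2 fold change was -0.95 (SE 0.15, adjusted p = 0.00245). Its difference from RPS26 was -0.90 (SE 0.19, adjusted p = 0.0711) and did not pass. The difference passed by voom (adjusted p = 0.0175), and by limma after quantile normalization or with GC and length trends removed (0.0449 in both).

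RPSAP9 overlaps no other annotated gene. It had 2.04, 2.43 and 2.74 FPKM in lactate, against 5.41, 4.30 and 4.77 FPKM in untreated cells, from 56 to 98 reads in lactate and 96 to 141 reads in untreated cells. Each lactate library lay below each untreated one, and the log2 fold change was -0.78 (SE 0.10, adjusted p = 0.00054). RPSA changed by -0.26, and the difference of -0.72 (SE 0.15, adjusted p = 0.0711) did not pass. The difference passed by voom (-0.73, adjusted p = 0.000675) and by limma after quantile normalization (-0.95, adjusted p = 0.0321). Among the 8 largest falls RPS2P55 had most reads, 515.5 on average. It had 16.2, 14.8 and 14.8 FPKM in lactate, against 22.7, 21.9 and 21.8 FPKM in untreated cells. Its log2 fold change was -0.51 (SE 0.04, adjusted p = 5.91e-05), and that of RPS2 was -0.27. The difference from RPS2, -0.26, did not pass by limma (adjusted p = 0.218) and passed by voom (-0.27, adjusted p = 0.0043).

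RPL36AP7, opposite an intron of GRB2, had 0.906, 1.33 and 1.01 FPKM in lactate, against 3.30, 2.72 and 1.68 FPKM in untreated cells, a change of -0.76 (SE 0.18, adjusted p = 0.013). Every lactate value lay below every untreated one. It rests on 9 to 14 reads in lactate and 18 to 30 reads in untreated cells. RPL36A itself did not pass (0.09, adjusted p = 0.183), and the difference between copy and parent was -1.3 (SE 0.26, adjusted p = 0.0711). The difference passed by voom (adjusted p = 0.00808) and by limma after quantile normalization (adjusted p = 0.0449). RPS26P47, RPL7AP30, RPS26P3 and RPL15P18 completed the largest falls, at -0.68, -0.56, -0.55 and -0.52. None of these 4 differed from its parent past the threshold in the main test, with adjusted p from 0.097 to 0.336. The difference of RPL7AP30 passed by voom (adjusted p = 0.0439) and by limma after quantile normalization (adjusted p = 0.0476). RPS26P47, with 9 to 28 reads per library, also lost its call when either of the lactate libraries 2 and 3 or either of the untreated libraries 2 and 3 was left out (adjusted p 0.0633 to 0.103).

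The 4 rises were RPL13P5, RPS18P9, RPSAP52 and RPL7P1. The first 3 of these have several exons, and 0%, 0.598% and 0% of their 50-base windows occur in the parent. RPL13P5 had 1.304, 1.69 and 1.65 FPKM in lactate, against 0.972, 0.936 and 1.01 FPKM in untreated cells. Only untreated library 3 reached 1 FPKM in its group. RPL13P5 thus met the mean of 1 FPKM and the filter of 3 libraries only through the lactate group, where it is higher. Its rise is therefore not independent of its selection. All lactate libraries lay above all untreated ones, and the log2 fold change was 0.36 (SE 0.07, adjusted p = 0.00293). Its exons overlap exons of LRRC23 and DSTNP2 on the same strand, by at most 561 bases with either gene. They share 228 bases with SPSB2 on the other strand, so reads in these overlaps cannot be told apart by position.

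RPS18P9, which shares 206 exon bases with KATNA1, a microtubule-severing katanin gene, on the opposite strand, had 1.37, 1.71 and 1.54 FPKM in lactate, against 0.840, 1.15 and 1.13 FPKM in untreated cells. The groups did not overlap, and the change was 0.32 (SE 0.08, adjusted p = 0.0114). Its difference from RPS18 did not pass in the main test and passed by voom (0.71, adjusted p = 0.00597). RPSAP52 lies opposite an intron of HMGA2, which encodes a chromatin architectural protein. It had 2.38, 2.42 and 2.29 FPKM in lactate, against 1.69, 1.97 and 2.23 FPKM in untreated cells, a change of 0.19 (SE 0.07, adjusted p = 0.0462). Lactate values all lay above untreated ones, though lactate library 3 and untreated library 3 lay close together. Its call was lost without any 1 of the lactate libraries, or without untreated library 1 or 2 (adjusted p 0.0758 to 0.114). The call was also lost after quantile normalization, after median centring, without a variance trend and without a filter (limma adjusted p 0.051 to 0.149). Nor did RPSAP52 pass by voom (adjusted p = 0.0746). The difference of RPSAP52 from RPSA did not pass in the main test. That difference passed by voom (0.522, adjusted p = 0.00396) and by limma with GC and length trends removed (0.681, adjusted p = 0.0223). Whether strand was used in counting is not given in the sources used here.

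RPL7P1, the only single-exon rise, is a near-identical copy of RPL7 opposite an intron of CSF1R. It had 526.1, 524.6 and 531.9 FPKM in lactate, against 513.8, 513.7 and 509.1 FPKM in untreated cells. The groups did not overlap, but the change was small, 0.04 (SE 0.01, adjusted p = 0.0292), and RPL7 had a value of 0.04 as well. The call was lost after median centring (adjusted p = 0.247) and without lactate library 3 or any of the untreated libraries (adjusted p 0.052 to 0.121). RPL7P1 also did not pass by voom on recovered reads (adjusted p = 0.0576) or by limma without a variance trend (adjusted p = 0.155).

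Counts by structure, sequence and position are given without a test of their difference. Single-exon copies gave 86 lower and 1 higher of 130, with a median of -0.24, and copies with several exons 3 lower and 3 higher of 10, with a median of -0.02. The single-exon copies also had the higher level, with a median of 28.0 FPKM and 519 reads, and the copies with several exons had 1.45 FPKM and 94.3 reads. Members with at least 50% of windows unchanged in the parent gave 36 lower of 48 (75%), those with 10% to 50% gave 44 of 64 (68.8%), and those with under 10% gave 9 lower and 3 higher of 28 (32.1% lower), near the 30.9% of all genes. Reads fell along the same order, with medians of 5122, 199.8 and 59.3 per library, and the part of depth in these counts was not tested. By position, 68 members overlapped no other annotated gene and gave 45 lower of 67 tested. The 22 in an intron of another gene on the same strand gave 14 lower, and the 40 opposite an intron gave 27 lower and 2 higher. The 11 that overlap an exon of another gene gave 3 lower and 2 higher. Across the 140 members the Spearman correlation of fold change with GC content was -0.455 and with length 0.101, as descriptions over genes that share the libraries.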

How the data were processed

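The authors deposited FPKM for 31368 genes in 6 libraries. The submitters' processing notes name featureCounts 1.5.0-p3, StringTie 1.3.3b, HISAT2 2.0.5 and fastp, and build hg38 (GRCh38). The sources used here do not give the annotation release, the use of strand or the handling of reads with several places. 8154 genes had no symbol in the table, 27 members among them, and were named from a reference gene table. The members and lists were chosen with earlier results of these data known.

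Whole reads were recovered from the steps of the FPKM values (within 0.01 reads) for 31366 genes. Only 17037 fitted their annotated exon length; for the others the smallest fitting length was used, so their reads may be too few. The library size that the FPKM divide by was above the recovered total in every lactate library (30957477 against 30117267 in lactate library 1). It was below that total in every untreated library (28287542 against 28937441 in untreated library 1). The offset thus went with the group. Counting noise follows the recovered reads: 50 members had under 100 per library.

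Genes were tested by limma 3.58.1 (R 4.3.3), with variance trend and robust estimation, on log2(FPKM + 1) for genes that reached 1 FPKM in 3 or more libraries, with group as the only term. SE is limma's. Fold changes understate those of low genes. A gene near 1 FPKM can pass the filter through the group where it is higher. Each copy's difference from its parent was tested likewise with 0.1 added. The code was tested on simulated data. Named members were the 12 highest, up to 8 largest falls and rises among those past the threshold without overlap, those that differed from the parent, the 3 nearest the threshold on each side, and RPSAP9 and RPS26P15. Identity, windows and positions came from GENCODE 29 transcripts. Alternatives were other scalings, filters, pseudocounts and variance models, removal of GC and length trends (splines with 4 degrees of freedom), voom on recovered reads, each library left out in turn and a block for the replicate number. Python 3.11.15 did the rest.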

Additional observations from a re-analysis of the deposited data

How the results depend on the processing

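Voom on recovered reads called 3873 genes lower and 3522 higher, 87 pseudogenes among the lower ones. The count of pseudogenes called lower, 89, was 79 to 85 with 1 library left out and 52 with GC and length trends removed, and stayed within 1.5 times of 89 in the other alternatives. Of the 89, 70 passed without each library in turn, 64 after quantile normalization, and 41 in every one of the 16 alternatives that tested them. The median fold change was -0.25 to -0.21 with 1 library left out and -0.16 scaled to recovered reads. It was -0.14 after quantile normalization and -0.11 with GC and length trends removed. Pseudogenes called higher numbered 12 after quantile normalization, 8 scaled to recovered reads, 7 with GC and length trends removed, 2 with median centring, without a variance trend, without a filter or with voom, 1 with a filter at 5 FPKM, and 2 to 3 with 1 library left out. Pairs called lower, 0 in the main test, were 7 after quantile normalization, 1 with GC and length trends removed and 13 with voom. Pairs called higher, 2 in the main test, were 14 with GC and length trends removed, 10 with voom, 5 after quantile normalization, 1 without a variance trend or with a filter at 5 FPKM, and 0 without a filter, among annotated pseudogenes only (chosen after seeing the data; 22 of the 568 pairs are not annotated as pseudogenes) and with any library left out. The median difference from the parent was -0.04 to -0.03 with 1 library left out, -0.109 after quantile normalization, and turned to 0.0867 with GC and length trends removed. The cause was not tested.

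With the replicate number as a block, 0 ribosomal protein pairs were called higher. Over all genes tested, deviations of libraries with the same number correlated at 0.05, 0.07 and -0.00377. The numbers thus showed no pairing over the genes as a whole, and the block is given here only. Single genes can differ. RPL21 passed lower with the block (-0.153, SE 0.0213, limma adjusted p = 0.00225) and did not pass without it (SE 0.0872, adjusted p = 0.178). 

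The sign turned after quantile normalization for RPL39P3 (0.022), RPL36AP37 (0.0567), RPS27P3 (0.0925), RPL21P16 (0.109), RPS27AP16 (0.00759), RPS27 (0.11) and RPS18 (0.0436). Scaled to recovered reads it turned for RPS27P3 (0.00582), RPS27 (0.00393) and the median of all genes (0.0415). With GC and length trends removed it turned for RPS27P3 (0.0874), RPL36A (-0.00393) and RPL7 (-0.0546). The difference of RPL7P1 from RPL7, 0.01, ran from -0.00971 to 0.0305 with 1 library left out. Of 661 fold changes of named genes under alternatives, 596 kept direction and side of the threshold, 50 lost the call, 3 gained it and 12 turned; of 212 differences from the parent, 176 kept both, 19 lost the call, 13 gained it and 4 turned. Depth limits the members under 100 reads, where the largest changes lie.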

Other observations

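The 432 ribosomal protein pseudogenes below the threshold had a median of 0.0675 FPKM, and 158 of them were at or above 0.1 FPKM. Their values summed to 58.9 ± 1.62 FPKM in lactate and 64.4 ± 0.26 FPKM in untreated cells (SD, n = 3 each). RPS19BP1, the protein-coding gene that the name pattern took, had 28.1, 30.2 and 29.04 FPKM in lactate, against 37.5, 39.2 and 37.2 FPKM in untreated cells, a log2 fold change of -0.37 (SE 0.03, limma adjusted p = 9.03e-05).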
